A study of Mus musculus with 2 samples.

Results

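Stromal cells of the gut make cytokines that keep leukocytes alive and growing. 9 such genes are described here, chosen by name as cytokines that sustain eosinophils, macrophages, mast cells or lymphocytes: Csf1, Csf2, Csf3, Kitl, Il34, Il7, Il15, Tslp and Il5. All 9 were among the 22180 genes that a probeset of the array names alone. They were measured in intestinal subepithelial myofibroblasts, the contractile, matrix-producing cells under the epithelium, taken from the small bowel of wild-type BALB/c mice. The non-stimulated group was cultured without eosinophil material, and the stimulated group was kept for 1 day in homogenised intestinal eosinophils at 5 mg/ml. The sources used here do not give what the non-stimulated cells received in its place, the age of the mice or the passage of the cells. RNA of 3 cultures was pooled for each group, so each group is 1 array. There is no replicate error, no test between the groups and no p-value, and each difference describes these 2 pools only.

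The cytokines act through a few receptors. CSF-1 and IL-34 both bind the CSF-1 receptor of macrophages, and GM-CSF (Csf2) and IL-5 share the common beta receptor chain, through which both prolong the life of eosinophils. G-CSF (Csf3) drives the formation of neutrophils. Stem cell factor (Kitl) binds KIT on mast cells, on melanocytes and on the pacemaker cells of the gut wall. IL-7 and TSLP share the IL-7 receptor alpha chain, and IL-15, held on the cell surface by its own alpha chain, sustains natural killer cells, memory T cells and intraepithelial lymphocytes. Gut stroma is a known source of several of these factors.

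All values below are the authors' deposited log2 values, in which 1 unit is a factor of 2, and differences are stimulated minus non-stimulated. A background level was read on each array from 1407 probesets of odorant and pheromone receptor genes (Olfr and vomeronasal families), as their 95th percentile. It was 5.58 without and 5.57 with homogenate, and 14068 genes passed it on at least 1 array. Because probes differ in how brightly they bind, the level of one gene is not set against the level of another. RNA of pooled cells also cannot tell fewer cells of a type apart from less RNA per cell.

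The 9 factors did not differ together. Csf1 was higher on the stimulated array, Kitl and Il15 were lower, and Il34 and Csf3 differed little. Il7 was just above background on the non-stimulated array only, and Csf2, Il5 and Tslp were under background on both arrays. Thus 6 of the 9 were above background on at least 1 array and 5 on both. Of those 6, none was 2-fold higher and none 2-fold lower, where 0.192% of the 14068 genes were so much higher, 0.0426% so much lower and 0.235% either. None passed 1.5-fold either, a size that 0.796% of the genes reached upwards and 0.64% downwards. Of the 6, 3 were higher and 3 lower, with a median difference of -0.13 from -0.50 to 0.32. Over all 14068 genes, the median was 0.00, with 7066 higher and 6775 lower.

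**Figure D1:**
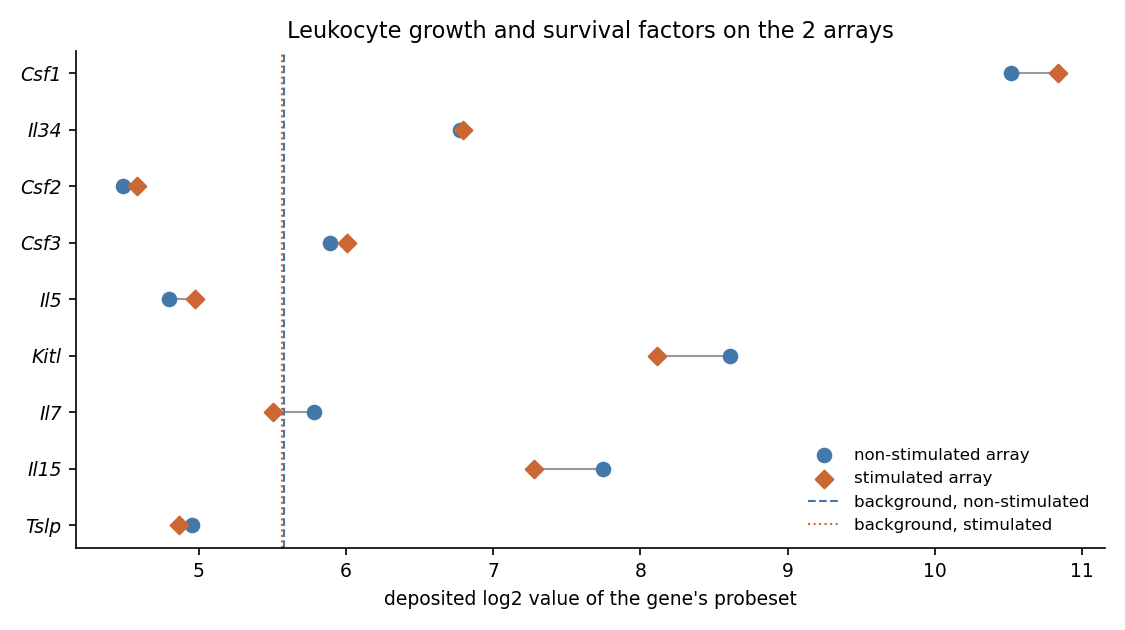
Deposited log2 value (horizontal axis) of each of the 9 genes on the non-stimulated array (circles) and the stimulated array (diamonds), 1 array each, with the background level of each array as a vertical line. Csf1 lies to the right on the stimulated array, Kitl and Il15 to the left, and Csf2, Il5 and Tslp lie under background on both; positions of different genes are not comparable as levels.

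Csf1 encodes CSF-1, the main growth and survival factor of macrophages, made by fibroblasts both as a secreted and as a membrane-bound protein. Its probeset read 10.52 on the non-stimulated and 10.84 on the stimulated array. Both values were far above background, by 4.94 and 5.27. The difference of 0.32 is 1.25-fold, and 544 genes above background differed further upwards. Il34 encodes the second ligand of the same receptor, best known from skin and brain. It read 6.77 and 6.80, above background by 1.20 and 1.23, and its difference was 0.02. The ligands of the CSF-1 receptor therefore differed unequally between the arrays, by 0.30 more for Csf1 than for Il34 (1.23-fold).

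The bases before the annotated start of Csf1 are shown because Csf1 was the member with the largest difference upwards, and those of Kitl because it was the member with the largest difference downwards. Of the 9 genes, 4 have a window in the RefSeq promoter table of GRCm38.p6: Csf1, Kitl, Csf2 and Il5. Il34, Csf3, Il7, Il15 and Tslp have none there. The 250 bases before the start of Csf1 lie at chr3:107760470-107760719 on the minus strand, and those of Kitl at chr10:100015571-100015820 on the plus strand. Capitals mark the only matches to 5 short motifs searched on both strands.
Csf1: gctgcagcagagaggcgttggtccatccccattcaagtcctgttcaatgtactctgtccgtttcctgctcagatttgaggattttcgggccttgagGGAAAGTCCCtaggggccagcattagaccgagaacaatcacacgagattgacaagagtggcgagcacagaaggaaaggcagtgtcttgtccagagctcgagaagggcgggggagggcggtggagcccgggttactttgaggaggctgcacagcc
Kitl: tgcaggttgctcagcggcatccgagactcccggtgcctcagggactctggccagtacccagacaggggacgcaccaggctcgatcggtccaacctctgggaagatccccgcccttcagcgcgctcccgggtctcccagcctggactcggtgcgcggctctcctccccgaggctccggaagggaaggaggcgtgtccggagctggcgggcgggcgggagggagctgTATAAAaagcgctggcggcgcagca

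The Csf1 window holds the NF-kB motif searched (GGG, any 2 bases, then TTTCC), read on the opposite strand as GGAAAGTCCC, from base -154 to base -145, where -1 is the base before the start. This motif occurs in 1.41% of the 32851 windows of the same length. The Kitl window holds the TATA box motif TATAAA from base -25 to base -20, which occurs in 12.4% of windows, and no NF-kB match. The Csf2 window holds the C/EBP motif TTGCNNAA from base -145 to base -138, found in 9.56% of windows, and the Il5 window none of the 5. The remaining motifs were TGANTCA (AP-1) and GAGATTCCA (the CK-1 element named from colony-stimulating factor promoters), in 6.75% and 0.204% of windows, and neither was in the windows of these 4 genes. The motifs do not overlap one another in the windows shown. A match is a run of letters and not evidence of binding, and a window without one says nothing of sites elsewhere.

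Kitl encodes stem cell factor, which stromal cells carry on their surface or release after cleavage. It read 8.61 on the non-stimulated and 8.11 on the stimulated array, above background by 3.03 and 2.55. The difference of -0.50 is 1.41-fold, and 166 genes above background differed further downwards. Within these arrays, Csf1 and Kitl moved apart by 0.82 (1.76-fold), a figure that a constant shift of a whole array would not alter.

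Il15 encodes IL-15, a survival factor of natural killer cells and of the T cells that lie in the epithelium. It read 7.75 and 7.28, above background by 2.17 without and 1.71 with homogenate. Its difference of -0.47 is 1.39-fold, and 201 genes above background differed further downwards. Il15ra, the chain that presents IL-15 on the surface of the producing cell, read 5.76 and 5.96. It lay above background by only 0.18 and 0.39, so its difference of 0.20, the other way, was read near background. Il7 encodes IL-7, which maintains T cells and innate lymphoid cells. It read 5.78 and 5.50, above background without homogenate and under it with homogenate. Its first value was 1.16-fold over the background level of the stimulated array, which sets no lower bound on a change. Of the receptor-gene probesets that set the background, 96.1% lay under Il7 on the non-stimulated and 94.0% on the stimulated array. Tslp, an alarmin that acts on dendritic cells and innate lymphoid cells through CRLF2, read 4.95 and 4.86, under background on both arrays.

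Csf3 encodes G-CSF, a cytokine that inflamed fibroblasts can make in quantity. It read 5.89 and 6.01, a difference of 0.12 (1.08-fold), and lay above background by only 0.31 and 0.44. Of the receptor-gene probesets, 96.6% lay under Csf3 on the non-stimulated and 97.4% on the stimulated array. Csf3 was thus near the edge of what the array could measure under either condition.

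The factors best known for keeping eosinophils alive read under background. Csf2, which encodes GM-CSF, has a pair of probesets. The brighter read 4.48 and 4.58, and the other read 3.99 and 4.24, all under background. Il5, the cytokine on which eosinophil formation depends, read 4.79 and 4.98. On the non-stimulated array 79.5% of the receptor-gene probesets lay under Csf2 and 84.7% under Il5, and on the stimulated array 82.2% and 88.1%. No difference between the arrays could be measured for Csf2, Il5 or Tslp.

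Among genes of like mean level, the differences of Csf1, Kitl and Il15 lay outside the central part of the spread. The 14068 genes were put into 4 equal sets by mean level, and the central 95% of differences was read in each as a description of these 2 arrays, not as an error. In the brightest set it ran from -0.25 to 0.29, against 0.32 for Csf1. In the next set, which holds Kitl and Il15, it ran from -0.29 to 0.32, against -0.50 and -0.47. In the set of Il34 it ran from -0.39 to 0.36, and in the dimmest set, which holds Csf3 and Il7, from -0.51 to 0.48. Thus 3 of the 6 factors lay outside the central range of their set and 3 inside. By size of difference in either direction, Kitl ranked 340, Il15 ranked 404 and Csf1 ranked 1169 of 14068, and Il34 ranked 12428.

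**Figure D2:**
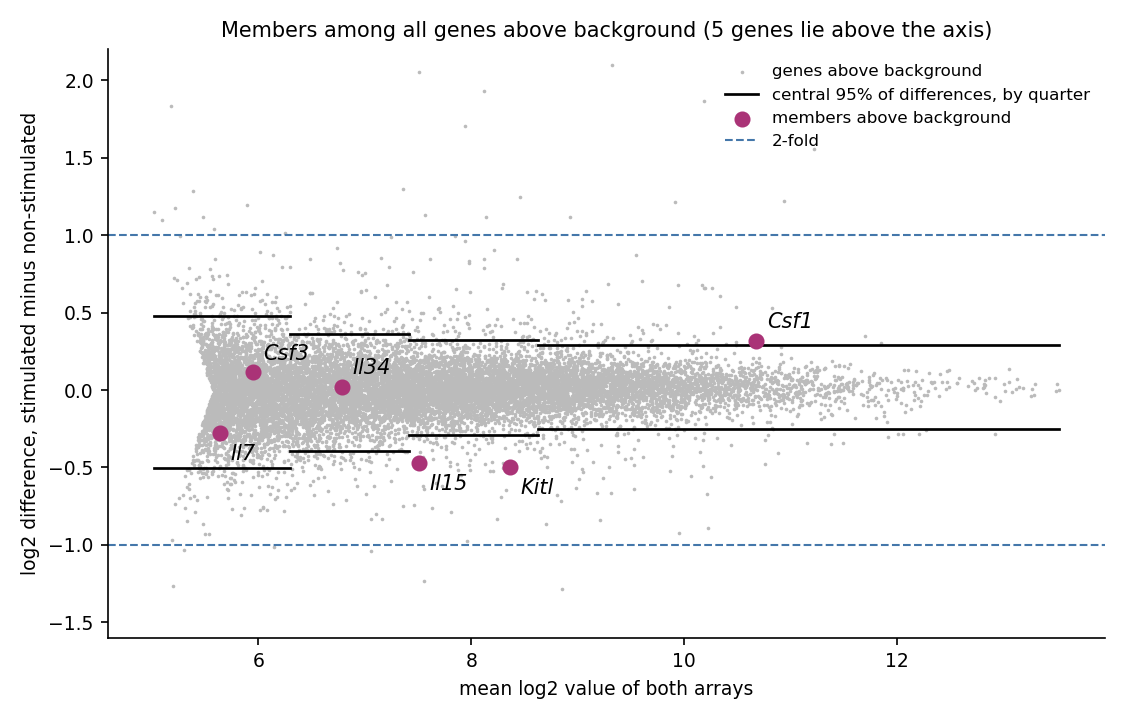
Log2 difference, stimulated minus non-stimulated (vertical axis), against the mean log2 value of both arrays (horizontal axis) for the 14068 genes above background (grey) and the 6 members among them (large points), with the central 95% of differences in 4 equal sets by mean level (black lines) and 2-fold (dashed). Csf1 lies just above the black line of its set, Kitl and Il15 lie under theirs, and Csf3, Il34 and Il7 lie between the lines; 5 genes lie above the axis.

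The receptors of these factors were mostly under background. Of 13 receptor genes measured, 5 were above background and none was 2-fold different, with 3 higher and 2 lower and a median of 0.07. Counts above background, here and in the lists below, stand beside 14068 of all 22180 genes. Csf1r, the receptor of both CSF-1 and IL-34, read 5.36 and 5.43, and Ptprz1, another receptor described for IL-34, read 4.28 and 4.52. Kit read 5.40 and 5.12, Csf3r 5.02 and 5.19, and Il5ra 4.93 on both arrays. Il7r read 3.23 and 3.10, Il2rb, a signalling chain for IL-15, read 5.46 and 5.43, and Csf2rb2, the IL-3-specific beta chain of the mouse, read 4.09 and 4.67. These 8 were under background on both arrays.

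Of the receptor genes above background, the alpha chain of the GM-CSF receptor, Csf2ra, read 7.52 and 7.40. The common beta chain, Csf2rb, read 5.67 and 5.74, only 0.09 and 0.17 above background. Crlf2, the TSLP-specific chain, read 7.60 and 7.55. Sdc1 (syndecan-1), a surface proteoglycan that also binds IL-34, read 7.65 and 7.77. The fifth was Il15ra, which was also near background, and all 5 differed by at most 0.20 in size. Il2rg was not analysed here. The myofibroblast arrays thus held transcripts of the TSLP-specific chain without Il7r above background, and of the alpha chain of the GM-CSF receptor without Csf2 above background.

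Transcription factors known to act on cytokine promoters, and their regulators, were read as a further list. Of 24 listed, 22 were measured and all 22 were above background, 16 higher and 6 lower, with a median of 0.11 and none 2-fold different. A difference of at least 0.5 was found upwards for 3 of them, against 1.2% of all genes above background. Nfkbia, which encodes the NF-kB inhibitor that NF-kB itself induces, read 7.70 and 8.54. Cebpd, a C/EBP factor of the acute-phase response, read 6.83 and 7.63, and Nfkbiz, a nuclear partner of NF-kB, read 7.96 and 8.64. No member of the list was lower by 0.5, as 1.15% of all genes above background were. The measured genes of the NF-kB subunits differed less: Rela by 0.08, Nfkb2 by 0.07, Rel by 0.27 and Relb by 0.31. The largest difference downwards in the list was that of Nfatc2, at -0.40. Csf1, with the NF-kB letters in its window, was higher on the same array, but its window was shown because Csf1 was higher. Whether any of the listed factors acts on Csf1 was not tested.

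Proteins that bind cytokine mRNAs and shorten or prolong their life, or act on their translation, were read as another list. Of 12 listed genes, all were above background, 9 higher, 2 lower and Tial1 equal, with a median of 0.10 and none 2-fold different. The 3 with the largest differences were Zc3h12a, which encodes the RNase regnase-1, at 7.30 and 7.80, Zfp36l1, at 9.42 and 9.75, and Rc3h1 (roquin-1), at 9.53 and 9.85. Zfp36l1 and Rc3h1 encode proteins that bind elements in the untranslated ends of mRNAs. Each of the 3 was higher, by 0.50, 0.33 and 0.32.

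CSF-1 and stem cell factor can be cut from the cell surface, and the genes of that step were read as a further list. Of 11 listed, 10 were above background, 5 higher and 5 lower, with a median of 0.00. Mmp9, a gelatinase known to release soluble stem cell factor in bone marrow, was the member past 2-fold, at 8.27 and 10.37 (4.29-fold higher). Past 2-fold either way were 0.235% of all genes above background, and the list was chosen with earlier results of these data known. Adam17, the main sheddase of CSF-1, read 8.31 and 8.66, and Rhbdf2, which encodes a partner that carries ADAM17 to the surface, read 6.60 and 6.95. Adam17 and Rhbdf2 were thus each higher by 0.35, and were named after their values were seen. Adam10, Adam9, Mmp14, Furin, Rhbdf1 and Timp3 differed by -0.04 (Adam10) to 0.02 (Mmp14). Adam33 differed by -0.18 and was under background with homogenate. Cma1, a mast cell chymase that also cuts stem cell factor, was under background on both arrays.

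Other cytokines that act on leukocytes gave a mixed picture. Of 27 measured of 30 listed, 16 were above background, 7 higher, 8 lower and Epo equal, with a median of -0.01 and none 2-fold different. Il6, a cytokine of inflammation that acts on B and T cells, was the member past 0.5, at 7.46 and 8.42. Higher by at least 0.5 were 1.2% of all genes above background. Cxcl12, which holds leukocyte precursors in their niche, read 9.68 and 9.51, and Tnfsf13b, which encodes the B cell survival factor BAFF, read 5.90 and 6.08. Under background on both arrays were 11 of the 27. Flt3l, Tnfsf13 and Thpo were not analysed here. Il18, a cytokine that acts on lymphocytes, read 6.05 and 5.57, the second value level with background. Il27 (6.78 and 6.37) and Il33 (7.24 and 6.99) were lower and Il11 (6.70 and 6.94) was higher, each by more than Cxcl12 or Tnfsf13b differed. Il13 also differed by more and is given below. Apart from Il6, the genes given values here were named after their values were seen.

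**Figure D3:**
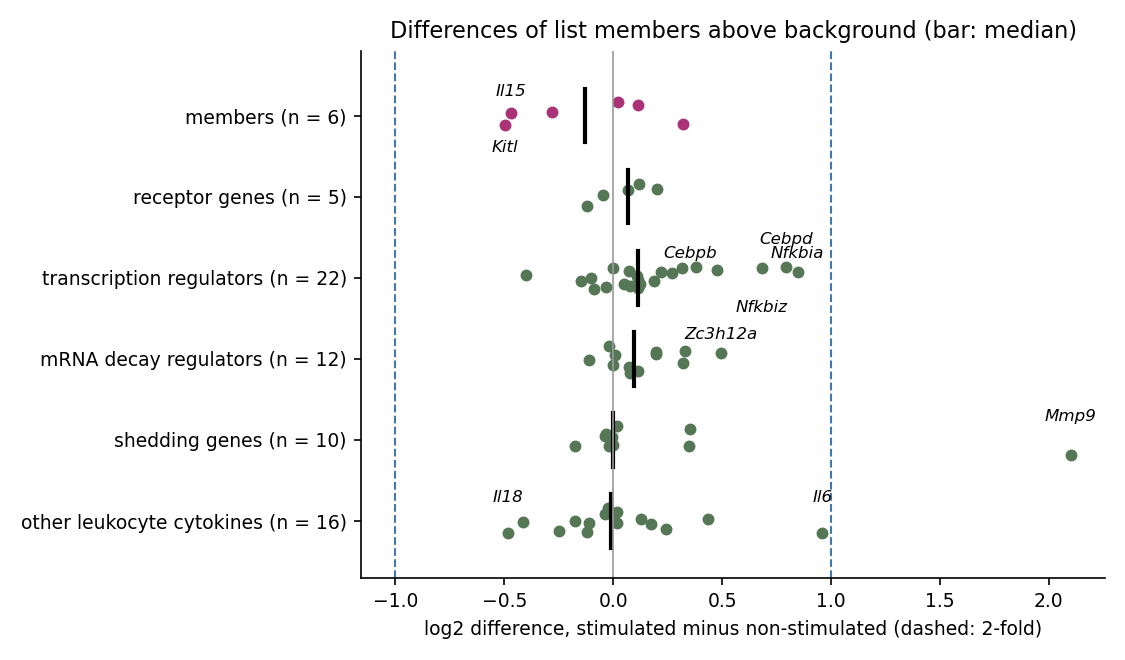
Log2 difference, stimulated minus non-stimulated (horizontal axis), of the genes above background in the members and in 5 related lists (rows; 1 point a gene, bar at the median), with 2-fold as dashed lines. Mmp9 is the single point past 2-fold. The members' median of -0.13 lies lowest of the 6 medians drawn, but it depends on Il7, which was under background with homogenate. Without a background filter it was 0.0203 over all 9.

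Csf2 and Il5 belong to the cytokine cluster that RefSeq places on mouse chromosome 11. From Il4 to Il3 it holds 12 coding genes in this order: Il4, Il13, Rad50, Il5, Irf1, Slc22a5, Slc22a21, Slc22a4, Pdlim4, P4ha2, Csf2 and Il3. Of these 12, 7 were above background on at least 1 array, where 14068 of all 22180 genes were. Of the cytokine genes, Il4 (5.20 and 5.07), Il5, Csf2 and Il3 (3.83 and 4.30) were under background on both arrays. Il13 read 5.34 and 5.78, above background with homogenate only. Its second value was 1.15-fold over the background level of the non-stimulated array, which sets no lower bound on a change. Its difference of 0.43 lay inside the central range of the dimmest set. Of the genes between the cytokine genes, Slc22a4 (4.98 and 5.40) was under background on both arrays and the others were above it on both. Rad50, a DNA repair gene next to Il5, read 7.98 and 8.16, and Irf1, its neighbour on the other side, read 7.01 and 7.06. P4ha2, a collagen prolyl hydroxylase gene next to Csf2, read 8.01 and 8.43. The cluster was read after the values of its members were known.

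**Figure D4:**
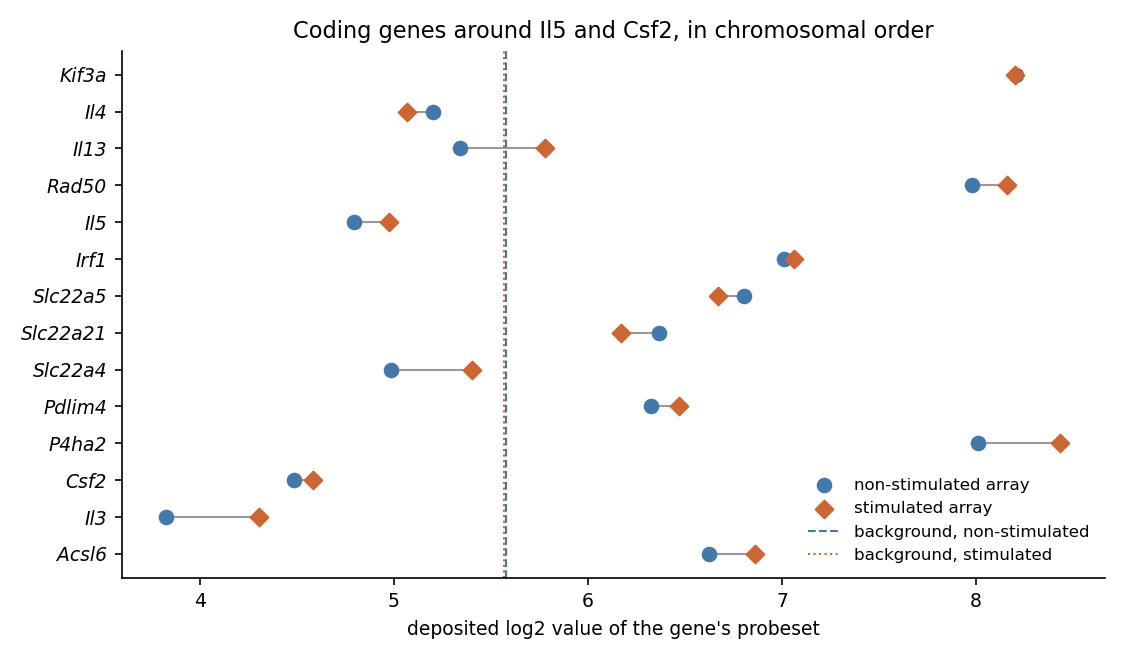
Deposited log2 value (horizontal axis) of the coding genes from Il4 to Il3 and 1 neighbour at each end, in RefSeq order along chromosome 11 from top to bottom, on the non-stimulated array (circles) and the stimulated array (diamonds), with background levels as vertical lines. Il4, Il5, Csf2 and Il3, and also Slc22a4 between them, lie under background on both arrays, while Rad50, Irf1 and P4ha2 lie above it on both.

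The source field of both samples reads as if the RNA came from eosinophils, but the titles and protocols name myofibroblasts. All 12 fibroblast markers were above background, led by Vim (13.10 and 13.16) and Acta2 (13.07 and 12.78). Of 9 eosinophil markers measured, 2 were above background, Cebpe (5.91 and 5.46, above it without homogenate only) and Alox15 (5.68 and 5.87). Epx, Prg2, Siglecf and Ccr3 were under it on both arrays. No mast cell marker of 11 was above it, with Kit and Tpsab1 (5.15 and 5.20) brightest. Of macrophage markers 6 of 11 were above it, led by Mertk (6.98 and 7.02) and Cx3cr1 (6.57 and 6.81), and Adgre1 and Csf1r were under it. Of pan-leukocyte markers 7 of 12 were, led by Cd53 (9.73 and 9.56) and Cd37 (6.21 and 6.10), and Ptprc was under it. Lymphocyte markers were above it for 2 of 10 genes, Gata3 (6.55 and 6.20) and Cd4 (5.26 and 5.58, above it with homogenate only), and neutrophil markers for 2 of 10, Cxcr2 (5.73 and 5.80) and Elane (5.65 and 5.79). Epithelial markers were above it for 5 of 12, led by Krt8 (6.45 and 6.23) and Chga (6.03 and 6.18), and endothelial markers for 4 of 10, led by Egfl7 (6.24 and 6.33) and Pecam1 (5.87 and 5.83). Neuron and glia markers were above it for 6 of 7, led by Uchl1 (8.62 and 8.51) and Tubb3 (8.11 and 8.24). Sox10 (8.215 and 8.051), Ret (7.60 and 7.59), S100b (7.17 and 6.87) and Gfap (6.51 and 6.35) were also above it, and Elavl4 was under it. Of 3 markers of interstitial cells of Cajal 1 was above it, Etv1 (7.95 and 8.14), with Ano1 (5.57 and 5.30) under it. Of all 22180 genes, 14068 were above background on at least 1 array, and a marker count near or under that share is not read as a sign of such cells. The neuron and glia count was over that share, as was the fibroblast count, and whether neurons or glia were in the cultures was not tested. The part of such cells in the values of the 9 cytokines was not tested.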

How the data were processed

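RNA of 2 pools of cultures was read on the GeneChip Mouse Gene 2.0 ST array, 1 array a condition. The deposited values are log2 values that the authors made with Affymetrix Expression Console and RMA, per the submitters' processing notes, with versions and genome build not given in the sources used here. This method makes both arrays share 1 distribution, so differences are relative to all other probesets. Here, probesets that the platform annotation pairs with 1 gene (23521 of 41345) were kept. Current symbols came from RefSeq (GRCm38.p6) for 23328 of them. The probeset with the highest mean stood for a gene. Genes above background on at least 1 array were compared by size of difference, with Python 3.11.15 and pandas 2.3.3. The call rule was run on simulated data with shifts set clearly past or clearly under the threshold. That checks the code and says nothing of false calls in these arrays. The members and lists were chosen with earlier results of these data known. All 9 members and all receptor genes were to be named. In other lists the rule named genes with a difference of at least 0.5, or else the 3 with the largest, and the 2 brightest markers of each cell type. No member reached 0.5 before rounding (Kitl differed by -0.496), the size at which genes of like difference were to be named. Other genes named were chosen after their values were seen. Alternatives were other background levels, the mean of a gene's probesets, centring on the median or a lowess trend, and thresholds of 1.5-fold and 3-fold.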

Additional observations from a re-analysis of the deposited data

How the results depend on the processing

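Over the alternatives that gave a value, Csf1 differed by 0.31 to 0.32, Kitl by -0.51 to -0.50, Il15 by -0.47, Csf3 by 0.11 to 0.14, Il34 by 0.02 to 0.03 and Il7 by -0.28 to -0.21. None of the 6 changed direction, but this was largely fixed in advance. Each of the 6 has 1 probeset, so the probeset mean and a moved or dropped background level left its difference unchanged. Raising values to background altered Il7 alone, and centring on the median shifts all genes alike. No member passed 1.5-fold or 2-fold under any of them. With background at the 99th percentile (6.80 and 6.65), Csf3 and Il7 fell under it, which leaves 4 members. Of these 4, Il34 was above that level on the stimulated array only. At that level 3 genes in all were 2-fold lower. Without a background filter the members' median was 0.0203 over all 9, and 43 genes were 2-fold higher and 29 lower. At 1.5-fold, 112 genes were higher and 90 lower, with 3 transcription regulators and 1 leukocyte cytokine besides Mmp9; at 3-fold, 11 were higher and 0 lower. No paired analysis was possible because each condition has 1 array. No replicate could be left out for the same reason. Signal over background limits what can be said of Csf3, Il7, Csf2, Il5 and Tslp, and of the receptor genes Csf2rb and Il15ra.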
